A study of Mus musculus with 6 samples.

Results

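The TNF superfamily ligands described here are 9 genes that encode cytokines of the tumour necrosis factor family: Tnf, Lta, Ltb, Cd40lg, Fasl, Tnfsf8, Tnfsf10, Tnfsf11 and Tnfsf14. They were taken by gene name from the library tables, where each name had 1 row among 39171 genes, and all 9 reached the mean of 1 FPKM needed for a test. FPKM is a fragment count scaled by transcript length and by the size of the library, so levels can be compared between genes. Splenic CD4+ T cells carried Ltb between 379.3 and 499.6 FPKM, Cd40lg between 65.5 and 85.0 FPKM, and the other 7 ligands between 4.04 and 14.7 FPKM. None of the 9 passed the test between AngII and Control mice. Tnf came nearest, with 81.9% of the Control mean in AngII and a lower value in each AngII library than in each Control library.

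Ligands of this family are made mostly as membrane proteins with a trimeric TNF homology domain, and several are cut from the surface to act at a distance. They bind receptors of the TNF receptor superfamily, which pass the signal through TRAF adaptors to NF-kappaB and MAP kinases or, where the receptor has a death domain, to caspases. Helper T cells use them as instructions to other cells: CD40 ligand licenses B cells and dendritic cells, lymphotoxins maintain lymphoid tissue, RANK ligand drives osteoclasts and dendritic cells, and Fas ligand and TRAIL induce apoptosis.

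The CD4+ T cells came from spleens of premenopausal C57BL/6 mice, isolated with an immunomagnetic kit, and 1 RNA library was made per mouse. AngII mice (3) received angiotensin II, the blood pressure raising peptide, from a minipump at 800 ng/kg/min over 14 days, beginning at 10 weeks of age. Control mice (3) of the same age are labelled untreated, and a sham pump is not mentioned. The comparison asks what the hypertensive stimulus does to helper T cell transcripts in females with ovarian function.

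The libraries carried the helper T cell markers at high levels: the 8 markers of that list summed to between 1857 and 2170 FPKM in Control and between 1845 and 2026 in AngII. RNA of other spleen cells was present too. The 12 macrophage markers summed to between 1253 and 2192 FPKM in Control and between 1547 and 3077 in AngII, with the top value in AngII replicate 2. The 9 B cell markers measured summed to between 657 and 1161 FPKM in Control and between 585.7 and 948.3 in AngII. Ighm alone gave 549.8 to 1042 FPKM of these sums. The mean log2(FPKM + 1) of the 9, which Ighm governs less, was highest in replicate 3 of each group. It was 2.917, 3.288 and 4.254 in Control replicates 1, 2 and 3 and 2.897, 3.036 and 4.075 in AngII. The 10 CD8 T and NK cell markers summed to between 195.4 and 276.9 and between 183.8 and 236.3 FPKM. The 10 granulocyte markers summed to 9.84, 9.82 and 49.2 FPKM in Control replicates 1, 2 and 3 and to 28.4, 91.0 and 78.8 in AngII. All 7 of them that were tested had a higher AngII mean (median log2 fold change 1.35), although Ly6g was at 0 in each library but Control replicate 1. The 7 platelet markers also all had a higher AngII mean (median 0.56), with sums of 104.6 to 275.7 and 175.3 to 241.0 FPKM. None of these markers passed limma at the adjusted threshold, and no marker list held a gene at 0 in all 6 libraries. The part of granulocyte and platelet RNA in the ligand values was not tested. The fragment totals are not in the files. In the lowest values, the step most often seen was worth at least 0.897 times, and no more than, that of Control replicate 1 over 1046 to 1132 low genes, and the absolute depth is unknown.

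Levels formed 3 tiers in every library. Ltb, the membrane anchor subunit of lymphotoxin, was at 455.3 ± 43.4 FPKM over all libraries (SD, n = 6), above 98.4% of the 11842 genes tested. Cd40lg was at 73.8 ± 6.77 FPKM (SD, n = 6), above 90.6% of genes tested, and Ltb exceeded it 6.17-fold with ranges that did not overlap. Cd40lg in turn exceeded the next ligand, Tnfsf8, 5.98-fold without overlap. Ltb alone gave 74.6% to 78.2% of the summed FPKM of the 9 ligands, and Cd40lg 11.1% to 13.8%.

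In the lowest tier, most neighbours in the order could not be parted. Tnfsf8 (12.3 ± 1.62 FPKM), Tnfsf11 (11.5 ± 1.35), Fasl (11.5 ± 1.77), Lta (10.4 ± 0.837) and Tnfsf14 (9.98 ± 1.53; SD, n = 6 each) followed each other with overlapping ranges, and each neighbour pair kept its order in 3 or 4 of 6 libraries. Tnfsf10 (7.88 ± 0.456 FPKM) lay under Tnfsf14 in 6 of 6 libraries although their ranges overlapped. Tnf was the lowest of the 9 at 4.82 ± 0.647 FPKM (SD, n = 6), under Tnfsf10 in every library with no overlap, and 25.3% of the genes tested had a lower mean.

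**Figure D1:**
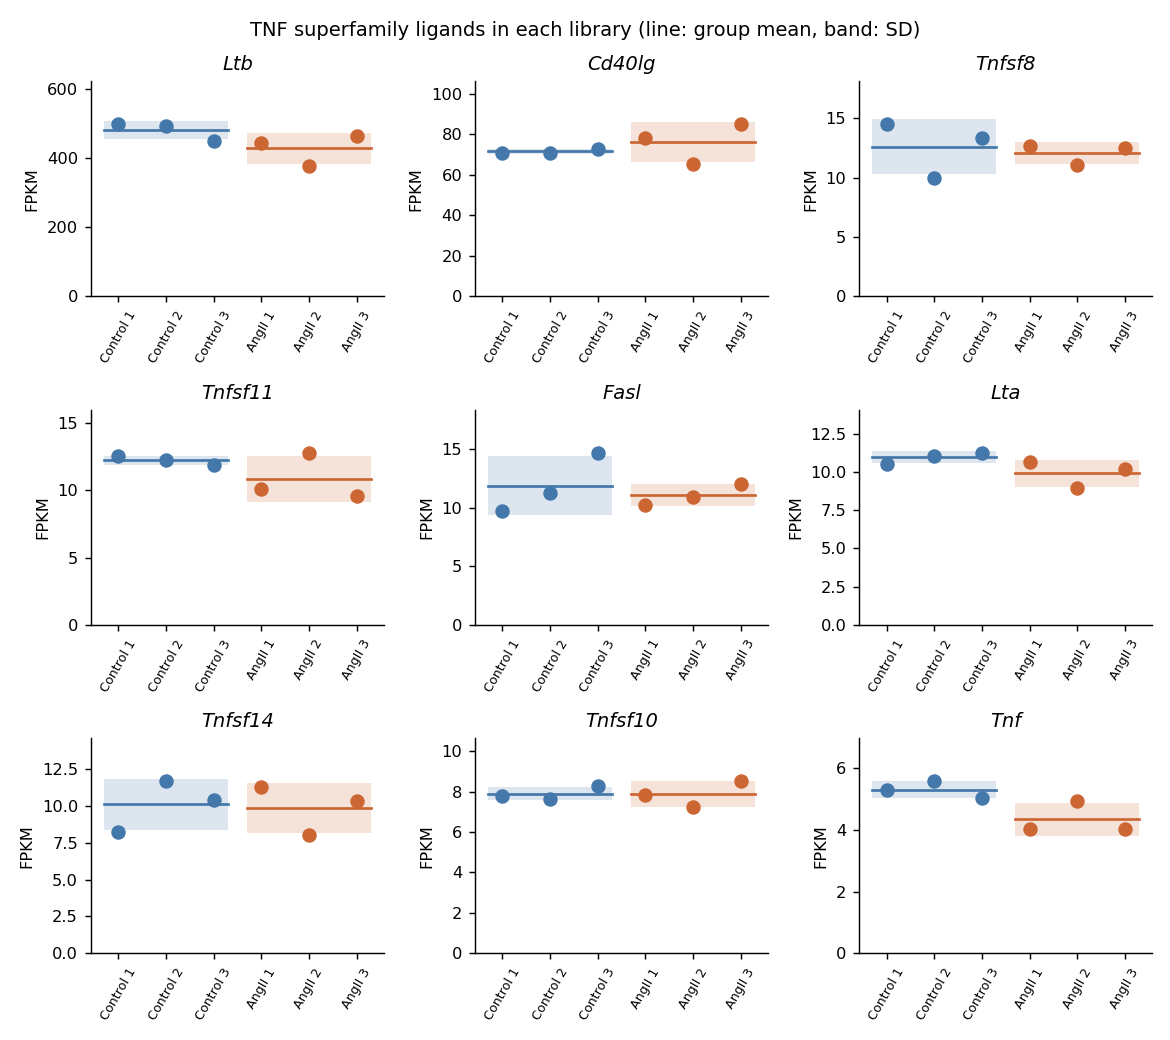
FPKM of each ligand (y axis, from 0) in the 3 Control libraries (blue) and 3 AngII libraries (orange), ordered by mean level; lines are group means and bands the SD. The groups overlap in 8 panels, and only in the Tnf panel do all AngII points (4.04 to 4.95 FPKM) lie under all Control points (5.03 to 5.58 FPKM).

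Tnf, Lta and Ltb stand next to each other on chromosome 17, and their means were all lower in AngII, as was that of Tnfsf11. In GENCODE M21 on GRCm38, Ltb (ENSMUSG00000024399, chr17:35194439-35196320, plus strand) is followed by Tnf (ENSMUSG00000024401, chr17:35199381-35202007, minus strand) after 3060 bases. Lta (ENSMUSG00000024402, chr17:35203165-35205351, minus strand) lies beyond Tnf, with 1157 bases between them. The bases before the start of these 4 genes are shown because their difference kept its direction whichever library was left out. They are from RefSeq on GRCm38.p6, at chr17:35202008-35202257 (Tnf, minus strand), chr17:35205352-35205601 (Lta, minus), chr17:35194257-35194438 (Ltb, plus, without the 68 bases nearest the RefSeq start, where GENCODE has an exon) and chr14:78308044-78308293 (Tnfsf11, minus). Capitals mark GGAAA, the core bound by NFAT factors, on either strand (TTTCC where it lies on the other one), and in Ltb a match to the NF-kappaB consensus, which overlaps that core.
Tnf: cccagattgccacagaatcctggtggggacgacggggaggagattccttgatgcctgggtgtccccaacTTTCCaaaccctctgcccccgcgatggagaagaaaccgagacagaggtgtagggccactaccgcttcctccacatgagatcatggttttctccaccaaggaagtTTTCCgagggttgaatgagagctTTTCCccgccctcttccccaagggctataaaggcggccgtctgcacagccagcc
Lta: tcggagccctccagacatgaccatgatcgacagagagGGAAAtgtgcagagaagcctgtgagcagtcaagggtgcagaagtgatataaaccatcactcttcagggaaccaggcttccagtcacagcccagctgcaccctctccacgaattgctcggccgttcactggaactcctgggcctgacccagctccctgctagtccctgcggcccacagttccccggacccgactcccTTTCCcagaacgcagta
Ltb: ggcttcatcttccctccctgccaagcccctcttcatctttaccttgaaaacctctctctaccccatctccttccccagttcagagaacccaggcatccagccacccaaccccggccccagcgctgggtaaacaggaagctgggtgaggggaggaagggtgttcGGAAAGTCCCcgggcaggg
Tnfsf11: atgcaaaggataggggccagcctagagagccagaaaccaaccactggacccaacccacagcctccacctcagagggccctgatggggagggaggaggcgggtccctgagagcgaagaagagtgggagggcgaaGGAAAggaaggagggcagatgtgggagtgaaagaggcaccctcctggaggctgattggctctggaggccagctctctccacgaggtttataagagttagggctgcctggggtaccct

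In these windows of 250 bases before the RefSeq start, searched on both strands, Tnf held GGAAA 3 times, Lta 2 times, and Ltb and Tnfsf11 1 time each. All 8 ligands with a window in the table held it, as did 55.6% of 32851 promoter windows of that length. The NF-kappaB consensus matched in 1 of the 8 (Ltb, 87 to 78 bases before the start) and in 3.90% of all windows. The AP-1 motif TGANTCA matched in 1 of the 8 (Tnfsf14) and in 6.75% of all windows. TATAAA lay in 3 of the 8 and in 12.4% of all windows. The match was 29 to 24 bases before the start in Tnf and 167 to 162 in Lta. In Tnfsf11 it was 32 to 27 bases before the start, on the other strand. A match of letters is no evidence of binding.

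Tnf, the family's founding inflammatory cytokine, measured 5.29, 5.58 and 5.03 FPKM in the Control libraries (replicates 1, 2 and 3) and 4.04, 4.95 and 4.04 FPKM in the AngII libraries. Every AngII library was under every Control library, and AngII replicate 2 lay close to the lowest Control library. Group means were 5.30 ± 0.274 and 4.34 ± 0.527 FPKM (SD, n = 3). The log2 fold change of FPKM + 1, AngII minus Control, was -0.24 (SE 0.0965, 95% interval -0.48 to -0.0064), with an unadjusted p of 0.0457 and an adjusted p of 0.9999 (limma with Benjamini-Hochberg adjustment). An exact two-sided permutation test gave p = 0.1, the smallest that 3 against 3 libraries allow. With each library left out in turn the value stayed between -0.32 and -0.20.

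Lta encodes the soluble lymphotoxin subunit, which forms trimers of its own or joins Ltb at the membrane. It measured 10.5, 11.1 and 11.3 FPKM in the Control libraries (replicates 1, 2 and 3) and 10.6, 8.91 and 10.2 FPKM in the AngII libraries. The groups overlapped through AngII replicate 1, and AngII replicate 2 was the lowest. Group means were 11.0 ± 0.374 and 9.91 ± 0.891 FPKM (SD, n = 3), a log2 fold change of -0.13 (95% interval -0.33 to 0.06). Without AngII replicate 2 it was -0.07.

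Ltb measured 499.6, 493.3 and 451.3 FPKM in the Control libraries (replicates 1, 2 and 3) and 444.4, 379.3 and 464.1 FPKM in the AngII libraries. Here too AngII replicate 2 was the lowest library, and AngII replicate 3 exceeded Control replicate 3. Means were 481.4 ± 26.2 and 429.2 ± 44.4 FPKM (SD, n = 3), a log2 fold change of -0.17 (95% interval -0.40 to 0.06), or -0.08 without AngII replicate 2. The ratio of Ltb to Lta, the partners of membrane lymphotoxin, was 44.0 ± 3.70 in Control and 43.3 ± 1.96 in AngII (SD, n = 3). Single libraries ranged from 40.1 to 47.4, and the group means differed by less than the spread within a group. The ratio of Lta to Tnf was 1.98 to 2.24 in Control and 1.80 to 2.63 in AngII, where replicate 2 had the lowest value.

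Tnfsf11 (ENSMUSG00000022015, chr14:78277445-78308043, minus strand) encodes RANK ligand, which T cells use toward osteoclast precursors and dendritic cells. It measured 12.5, 12.2 and 11.9 FPKM in the Control libraries (replicates 1, 2 and 3) and 10.1, 12.8 and 9.59 FPKM in the AngII libraries. AngII replicates 1 and 3 lay under all Control libraries and AngII replicate 2 above them, so the groups overlapped through that library alone. Means were 12.2 ± 0.329 and 10.8 ± 1.72 FPKM (SD, n = 3), with a log2 fold change of -0.17 (95% interval -0.44 to 0.10). The value was -0.29 without AngII replicate 2.

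Cd40lg (ENSMUSG00000031132, chrX:57212143-57224042, plus strand), the gene of CD40 ligand, was the only ligand with a higher AngII mean. It measured 70.8, 70.9 and 72.9 FPKM in the Control libraries (replicates 1, 2 and 3) and 77.9, 65.5 and 85.0 FPKM in the AngII libraries. The Control libraries lay close together, whereas AngII libraries lay on both sides of them. Means were 71.5 ± 1.20 and 76.2 ± 9.85 FPKM (SD, n = 3), a log2 fold change of 0.08 (95% interval -0.16 to 0.33). Without AngII replicate 2 it was 0.18, and without AngII replicate 3 it was -0.0012.

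Fas ligand and TRAIL are the death ligands of the set. Fasl (ENSMUSG00000000817, chr1:161780689-161788495, minus strand) measured 9.71, 11.2 and 14.7 FPKM in the Control libraries (replicates 1, 2 and 3) and 10.2, 10.9 and 12.0 FPKM in the AngII libraries. All AngII values lay inside the Control range, which was set by a low replicate 1 and a high replicate 3. Means were 11.9 ± 2.55 and 11.1 ± 0.913 FPKM (SD, n = 3), a log2 fold change of -0.08 (95% interval -0.45 to 0.29) that became 0.07 without Control replicate 3. Cytotoxic T and NK cells also express Fasl. Their 10 markers summed to 195.4, 255.2 and 276.9 FPKM in Control replicates 1, 2 and 3 and to 196.7, 183.8 and 236.3 in AngII. Control replicate 3 was highest and Control replicate 1 among the lowest for both. AngII replicate 2 had the lowest marker sum, while its Fasl value (10.9 FPKM) exceeded those of Control replicate 1 and AngII replicate 1. The part of such cells in the Fasl values was not tested, and in bulk RNA fewer cells cannot be told apart from less RNA per cell.

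Tnfsf10 (ENSMUSG00000039304, chr3:27317028-27342427, plus strand), the gene of TRAIL, varied least of the 9, with a coefficient of variation of 5.78% over the 6 libraries. It measured 7.78, 7.64 and 8.27 FPKM in the Control libraries (replicates 1, 2 and 3) and 7.86, 7.24 and 8.52 FPKM in the AngII libraries. The AngII range enclosed the Control range. Means were 7.89 ± 0.329 and 7.87 ± 0.640 FPKM (SD, n = 3), and the log2 fold change was -0.01 with an interval of -0.20 to 0.19.

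Tnfsf8 (CD30 ligand) and Tnfsf14 (LIGHT, which binds HVEM and the lymphotoxin beta receptor) differed more between mice of a group than between groups. Tnfsf8 (ENSMUSG00000028362, chr4:63831308-63861347, minus strand) measured 14.5, 9.99 and 13.4 FPKM in the Control libraries (replicates 1, 2 and 3) and 12.7, 11.0 and 12.5 FPKM in the AngII libraries. The highest and the lowest of the 6 values were both Control libraries. Its log2 fold change was -0.05 (95% interval -0.39 to 0.30). Tnfsf14 (ENSMUSG00000005824, chr17:57189492-57194177, minus strand) measured 8.25, 11.7 and 10.4 FPKM in the Control libraries (replicates 1, 2 and 3) and 11.3, 7.996 and 10.3 FPKM in the AngII libraries. A low library stood in each group, Control replicate 1 and AngII replicate 2. Its log2 fold change was -0.03, with the widest interval of the 9, -0.43 to 0.36.

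**Figure D2:**
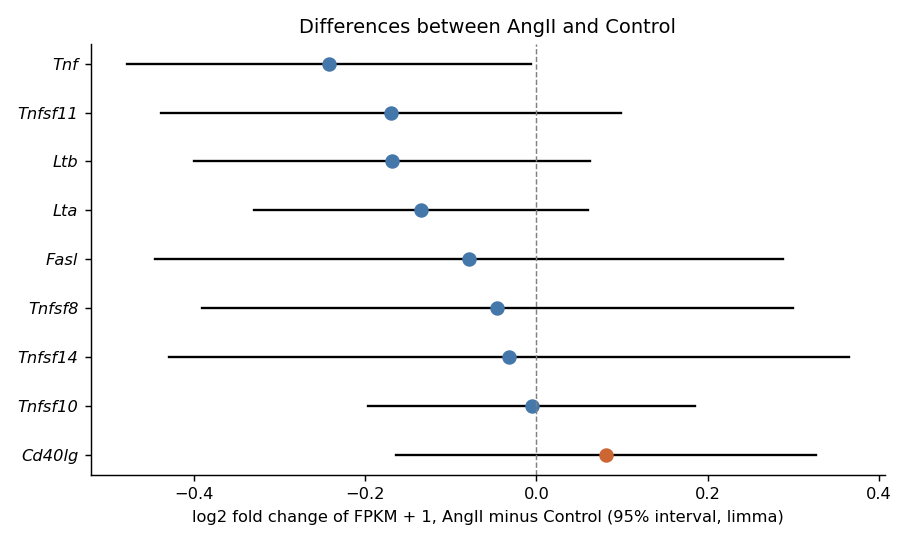
Log2 fold change of FPKM + 1, AngII minus Control (x axis), for the 9 ligands (rows), with the 95% interval of the limma fit. Points run from -0.24 for Tnf to 0.08 for Cd40lg, and 8 of the 9 intervals cross 0.

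As a set, 8 of the 9 ligands had a lower mean in AngII and 1 a higher one, although Tnfsf8, Tnfsf10 and Tnfsf14 lay above 0 once libraries were scaled to an equal sum of FPKM. That scaling also moved the median of all genes to 0.0578, and these 3 values (0.018, 0.0553 and 0.0299) lay under that median. Without scaling, 52.0% of all 11842 genes tested had a lower mean. The median log2 fold change of the 9 was -0.08, against -0.004 for all genes tested. The CD4 T cell markers had a median of -0.07 (7 of 8 with a lower AngII mean) and the CD8 T and NK cell markers one of -0.15 (9 of 9 tested lower). The B cell markers also leaned lower, with a median of -0.13 (9 of 9 tested lower). The macrophage markers leaned higher, with a median of 0.13 (10 of 12 higher), as did the granulocyte and platelet markers. The part of these cell types in the values of the ligands was not tested. Of the 9, 0 passed limma at an adjusted p under 0.05, and 1 (Tnf) had an unadjusted p under 0.05. Over all genes tested, 0.0338% passed the adjusted threshold (4 genes) and 1.76% had an unadjusted p under 0.05 (1.14% with AngII lower). Groups did not overlap for 1 of the 9 ligands, where 5.84% of all genes tested had groups that did not overlap (3.48% with AngII lower and 2.36% with AngII higher). The adjusted p was 0.9999 for each ligand. The 95% intervals reached between 0.191 and 0.397 to either side.

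**Figure D3:**
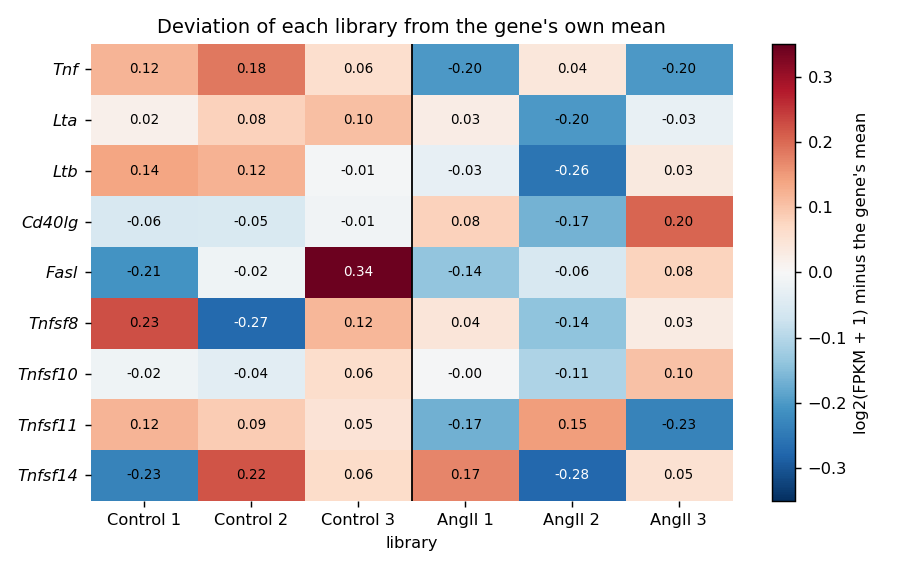
Deviation of log2(FPKM + 1) in each library (columns) from the gene's own mean over the 6 libraries, for the 9 ligands (rows); red is above and blue below the mean. AngII replicate 2 is blue for 7 ligands and red for Tnf (0.04) and Tnfsf11 (0.15).

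Libraries differed in which ligands were low. AngII replicate 2 had the lowest value of all 6 libraries for 5 ligands (Lta, Ltb, Cd40lg, Tnfsf10 and Tnfsf14) and the highest for Tnfsf11. Its median deviation over the 9 was -0.14 on the log2 scale, against -0.003 to 0.081 in the other 5 libraries. This library also had the largest macrophage marker sum, 3077 FPKM against 1253 to 2192 in the others. Whether that RNA takes part in the low ligand values was not tested.

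Tnf and Tnfsf11 showed a pattern of their own, with AngII replicate 2 the highest AngII library and replicates 1 and 3 the lowest of all 6. The immediate early genes Fos and Jun, which encode AP-1 subunits and were chosen after their values were seen, split the AngII libraries in the same way. Fos was at 142.9, 357.9 and 163.7 FPKM in AngII replicates 1, 2 and 3 and at 492.8, 574.9 and 150.7 in Control replicates 1, 2 and 3. Jun was at 152.7, 394.2 and 179.0 FPKM in AngII and at 392.6, 453.0 and 185.8 in Control. In AngII replicates 1, 2 and 3, Junb (1360, 1919 and 1548 FPKM) and Jund (166.9, 270.0 and 182.3 FPKM) were also highest in replicate 2. Early genes of the Egr family did not share this split of the AngII libraries. Egr1 was at 41.8, 45.9 and 49.8 FPKM in AngII replicates 1, 2 and 3 and at 69.0, 66.4 and 43.4 in Control. AngII replicate 2 was the lowest AngII library for Egr2 (4.07 FPKM) and Egr3 (6.86 FPKM). Control replicate 3 was low for Fos and Jun, and it was the lowest Control library for Tnf and Tnfsf11 (5.03 and 11.9 FPKM). The Control libraries lay close together for Tnfsf11, between 11.9 and 12.5 FPKM. Control replicate 2 was the highest of the 6 libraries for both Tnf (5.58 FPKM) and Fos (574.9 FPKM). AngII replicate 2 had more Fos than Control replicate 3 (357.9 against 150.7 FPKM) but slightly less Tnf (4.95 against 5.03 FPKM). The part of the Fos and Jun difference between libraries in the Tnf and Tnfsf11 values was not tested.

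**Figure D4:**
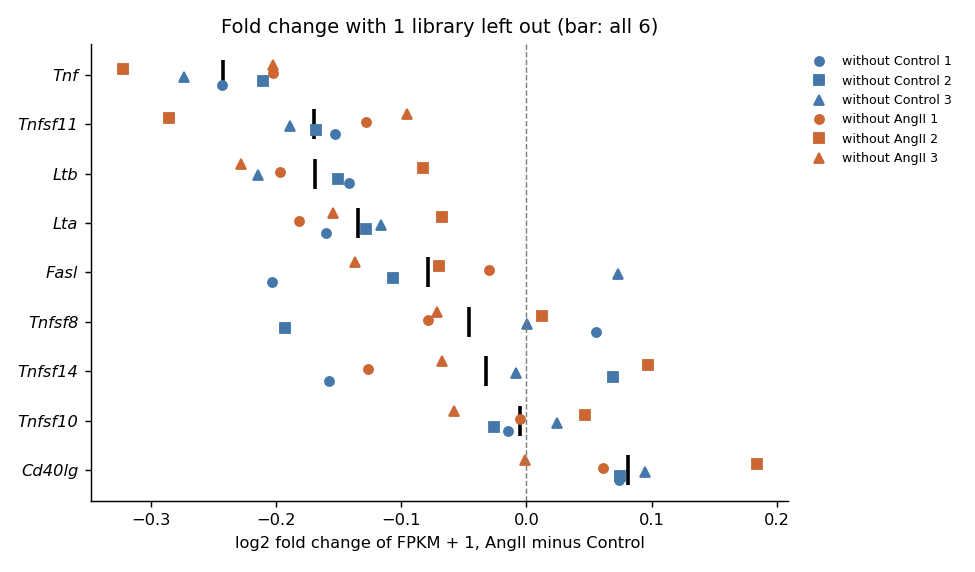
Log2 fold change of FPKM + 1, AngII minus Control (x axis), for each ligand (rows) with all 6 libraries (black bar) and with 1 library left out (points, by library). Tnf, Tnfsf11, Ltb and Lta stay under 0 throughout. The points farthest from the bar for Tnf, Tnfsf11, Lta, Ltb and Cd40lg are those without AngII replicate 2. This also holds, narrowly, for Tnfsf14 (0.0971, against -0.1575 without Control replicate 1).

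Leaving out AngII replicate 2 widened the differences of Tnf (-0.32, unadjusted p 0.00706), Tnfsf11 (-0.29, unadjusted p 0.00402) and Cd40lg (0.18, unadjusted p 0.0252), each with a limma adjusted p of 0.6322. In that fit 3 of 9 ligands had an unadjusted p under 0.05, where 7.75% of all genes tested did. Tnfsf8, Tnfsf10 and Tnfsf14 had values above 0 in that fit (0.01, 0.05 and 0.10). None of the 9 ligands passed the adjusted threshold in this or any other fit.

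The other ligands of the family were mostly under the filter. Of 9 listed (Tnfsf4, Tnfsf9, Tnfsf12, Tnfsf13, Tnfsf13b, Tnfsf15, Tnfsf18, Cd70 and Eda), 3 were tested, 0 passed limma and 0 had an unadjusted p under 0.05. Tnfsf12 (TWEAK) measured 4.73, 5.46 and 9.17 FPKM in the Control libraries (replicates 1, 2 and 3) and 5.84, 8.99 and 6.30 FPKM in the AngII libraries. Tnfsf13 (APRIL, a B cell and plasma cell survival factor) measured 2.44, 2.88 and 3.85 FPKM in the Control libraries and 2.88, 6.61 and 2.32 FPKM in the AngII libraries. Both were highest within their group in Control replicate 3 and AngII replicate 2, the libraries with the largest macrophage marker sums of their groups (2192 and 3077 FPKM). The part of macrophage RNA in these values was not tested. Tnfsf9 (4-1BB ligand) was near the filter, with means of 1.16 ± 0.211 FPKM over the Control mice and 1.47 ± 0.707 over the AngII mice (SD, n = 3).

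Receptors of the 9 ligands were measured in the same libraries, which also hold RNA of other cells. Of 13 listed, 11 were tested, 0 passed limma, and 6 had a lower and 5 a higher AngII mean, with a median log2 fold change of -0.02. The smallest unadjusted p values of this list belonged to Cd40 (-0.26), Tnfrsf14 (0.14), Tnfrsf1b (-0.07) and Btla (0.14). Tnfrsf14 encodes HVEM, the receptor of LIGHT and of Btla, and averaged 19.2 ± 2.67 FPKM over the Control mice and 21.1 ± 2.37 over the AngII mice (SD, n = 3). For the TNF receptors Tnfrsf1b (37.0 ± 4.02 and 35.1 ± 0.494 FPKM) and Tnfrsf1a (36.9 ± 3.56 and 38.2 ± 2.94 FPKM), the group means differed by less than the Control SD (n = 3). Fas, the receptor of Fas ligand, was at 16.7 ± 0.701 and 16.4 ± 2.02 FPKM (SD, n = 3). Ltbr, the lymphotoxin beta receptor, was highest within its group in Control replicate 3 (4.89 FPKM) and AngII replicate 2 (5.85 FPKM), as were the macrophage marker sums. The part of macrophage RNA in it was not tested. Tnfrsf1a, Fas and Ltbr were chosen for the text after their values were seen. Cd40, the B cell and antigen presenting cell receptor of CD40 ligand, was close to the filter, between 0.748 and 2.11 FPKM, against 65.5 to 85.0 FPKM for Cd40lg.

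Of the receptors for other ligands of the family, 11 of 16 were tested and 0 passed, with 6 lower and 5 higher AngII means. The costimulatory receptors Tnfrsf9 (4-1BB) and Tnfrsf18 (GITR) had log2 fold changes of -0.13 and -0.14. Tnfrsf9 measured 22.1, 21.7 and 21.2 FPKM in the Control libraries (replicates 1, 2 and 3) and 18.4, 21.6 and 19.4 FPKM in the AngII libraries. Tnfrsf18 measured 42.5, 45.7 and 46.8 FPKM in the Control libraries and 36.6, 47.0 and 39.0 FPKM in the AngII libraries. In both genes AngII replicate 2 lay among or above the Control libraries and AngII replicates 1 and 3 under them, as for Tnfsf11. Tnfrsf13b (TACI) and Tnfrsf21 (DR6) had values of -0.06 and 0.15.

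Downstream of the receptors, 25 of 25 adaptor and death signalling genes were tested and 0 passed, with 13 lower and 12 higher AngII means. Tab1, an activating partner of the kinase TAK1, had the smallest unadjusted p of the list (0.0489, log2 fold change 0.22). It measured 5.27, 4.60 and 5.16 FPKM in the Control libraries (replicates 1, 2 and 3) and 5.42, 6.42 and 6.21 FPKM in the AngII libraries, without overlap. The NF-kappaB target genes Birc3 (-0.14) and Traf1 (-0.10) and the apoptosis mediator Bid (-0.11) overlapped between groups. Among the 7 of 10 shedding and processing genes tested, 0 passed. Adam10, a sheddase of several ligands of the family, had a log2 fold change of 0.03, Rhbdf2 (iRhom2, which brings the TNF convertase to the surface) 0.09, Sppl2b 0.07 and Mmp9 -0.16.

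The mRNA decay factors, several of which act on the AU-rich tail of Tnf mRNA, were all tested (13 of 13). None passed limma at the adjusted threshold and 0 of them had an unadjusted p under 0.05, with 6 lower and 7 higher AngII means. Zfp36, which encodes tristetraprolin, measured 433.4, 484.8 and 292.6 FPKM in the Control libraries (replicates 1, 2 and 3) and 239.5, 377.3 and 291.2 FPKM in the AngII libraries. Control replicate 3 and AngII replicates 1 and 3 formed the low libraries, the same 3 that were low for Fos and Jun. Its log2 fold change was -0.41 with a 95% interval of -0.997 to 0.183. Zfp36l2 had 0.23, Zc3h12a (the RNase regnase-1) -0.21 and Elavl1 (the stabilising protein HuR) -0.11.

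All 19 transcription factors listed were tested and 0 passed, with 14 lower and 5 higher AngII means and a median of -0.07. Relb, a subunit of the noncanonical NF-kappaB pathway that follows the lymphotoxin beta and CD40 receptors, measured 27.1, 30.7 and 31.4 FPKM in the Control libraries. Its AngII values were 25.9, 26.4 and 26.7 FPKM, all lower, with a log2 fold change of -0.17 and an unadjusted p of 0.0559. Its partner Nfkb2 had -0.10, while Rel had 0.17 and the immediate early gene Egr1 -0.35, each with overlapping groups. Over the 7 lists together, 89 of 105 genes were tested, 0 passed, 1 had an unadjusted p under 0.05 and 4 had groups without overlap, where all genes tested gave 1.76% and 5.84%.

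**Figure D5:**
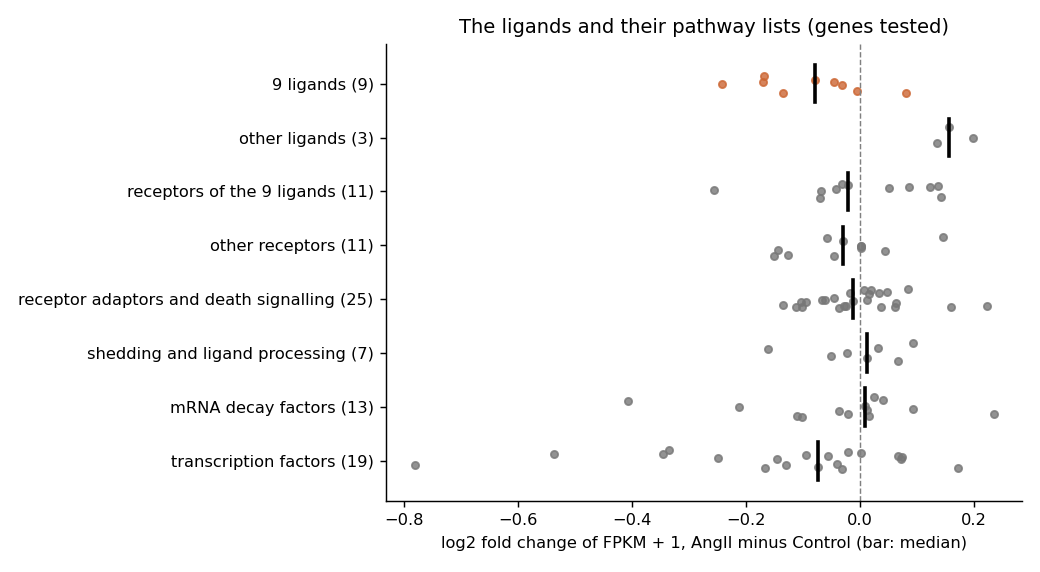
Log2 fold change of FPKM + 1, AngII minus Control (x axis), of each gene tested (points, spread vertically at random) in the 9 ligands and the 7 lists (rows, number tested in brackets); vertical bars are list medians. Medians run from -0.08 for the ligands to 0.16 for the 3 other ligands.

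Around the Tnf, Lta and Ltb cluster, 15 other genes within 100000 bases were tested, a distance chosen after values were seen. Of these, 0 passed limma, 0 had an unadjusted p under 0.05, and 11 had a lower AngII mean, with a median log2 fold change of -0.06. Over all genes tested, 52.0% had a lower AngII mean. The 15 include very short genes with unsteady values. These are Mir6973a, which lies inside Ltb (means of 24.58 FPKM in Control and 0.0 in AngII), Mir8094 (0.0 and 6.607) and the snoRNA gene Gm23442 (5.735 and 2.575).

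Profiles most like each ligand were sought by the root mean square difference of log2(FPKM + 1), centred on each gene's mean, over the 6 libraries. Nearest to Tnf were Ldhb (0.036), Yipf1 (0.0362) and Gm6451 (0.0416). Lta was nearest to Lysmd4 (0.022), Zmynd19 (0.0228) and Sike1 (0.0274), and Ltb to 4930481A15Rik (0.0214), Cnn2 (0.0221) and Faap100 (0.0224). Genes nearest to Cd40lg were Lims1 (0.0179), Ubp1 (0.0219) and Neu3 (0.0278). The profile of Fasl was closest to those of Pou2f2 (0.0291), Kynu (0.0335) and Fgl2 (0.0426). Tnfsf11 was nearest to Pspc1 (0.0234), and Tnfsf10 to Dffa (0.0156). Tnfsf8 and Tnfsf14 had no neighbour nearer than 0.0498 (Nav2) and 0.0502. The 9 ligands themselves were left out of the search.

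In the authors' deposited table, which names its conditions only by number, all 9 ligands had a q value of 0.999918. The smallest p values in the authors' deposited table were 0.1403 for Ltb and 0.1778 for Tnf, and the largest was 0.98085 for Tnfsf10.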

How the data were processed

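RNA of splenic CD4+ T cells from 3 Control and 3 AngII mice was sequenced after an Illumina TruSeq preparation, per the labels' protocols. The submitters' processing notes name Trimmomatic 0.32, TopHat2 2.1.1, Cuffdiff and the build GRCm38.p3. The deposited library files hold FPKM per gene, per the file headers, with 39171 genes each, and the strand setting of the counting is not stated in the sources used here. P-values and q-values come from the authors' deposited table, whose conditions are unnamed, so no direction was taken from it. Fragment totals are not in the files used, so depth and its counting error are unknown.

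Symbols came from GENCODE M21 (37605 IDs matched) and promoter sequences from RefSeq (GRCm38.p6). The 11842 genes averaging 1 FPKM or more were fitted as log2(FPKM + 1) on the 6 libraries in limma 3.58.1 (R 4.3.3) with a mean-variance trend and Benjamini-Hochberg adjustment, with an adjusted p under 0.05 as the threshold. Fold changes on that scale understate changes of low genes. Single values had an exact two-sided permutation test. P-values set the difference between groups against the spread between libraries, which limma moderates over all genes tested. With 1 library per mouse, that spread holds both biological and technical variation. The fit was tested on simulated data of 11432 genes for the AngII against Control comparison. It recovered 46% of changes of 0.5 on the log2 scale, 90% of 1 and 100% of 2 and 3, with 8 false calls. The simulation had independent noise and changed 50 genes at each size, none of them near the filter. With so many changed genes the adjusted threshold is easier to reach than in the real data, where 4 genes passed. These shares therefore do not give the power for the ligands. Pseudocounts, filters, scalings, eBayes settings, weights per library, a block for the replicate number and each library left out were tried as alternatives.

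Genes named are the 9 ligands, up to 4 genes of smallest unadjusted p per pathway list, and the 3 most alike per ligand (some given in part), from genes with an SD of at least 0.5 times the ligand's. Members and lists were chosen with earlier results of these data known. Of 10 marker lists, those not described above (plasma cells, dendritic cells, erythroid and stromal cells) also held 0 genes past the threshold. Lta and Ltb each host a microRNA gene (Mir6974 and Mir6973a) on the same strand, outside their exons.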

Additional observations from a re-analysis of the deposited data

How the results depend on the processing

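No ligand and no gene of the pathway lists passed the adjusted threshold under any alternative. Over all genes, 4 passed with AngII lower and 0 higher; without a filter 7 were lower. With 1 library left out, between 3 and 8 were lower and between 0 and 5 higher (8 lower without Control replicate 1, and 5, 2, 2 and 1 higher without AngII replicate 3, AngII replicate 2, Control replicate 3 and AngII replicate 1). Tnf, Lta, Ltb and Tnfsf11 kept their direction under all alternatives in which they were tested. With 1 library left out, Cd40lg ranged from -0.0012 to 0.18, Fasl from -0.20 to 0.0729, Tnfsf8 from -0.19 to 0.0556, Tnfsf10 from -0.0575 to 0.0466 and Tnfsf14 from -0.16 to 0.0971. Scaling to an equal sum of FPKM, which moved the median of all genes to 0.06, gave Tnfsf8 0.018, Tnfsf10 0.0553 and Tnfsf14 0.0299. Library weights gave Tnfsf8 0.16 and Tnfsf10 0.0677. The causes were not tested. With library weights 3 of 9 ligands had an unadjusted p under 0.05, as did 17.3% of all genes, and the lowest limma adjusted p of a ligand was 0.2751. Tnf had an unadjusted p of 0.00706 without AngII replicate 2 and between 0.0625 and 0.138 without another library. It was 0.1658 at an equal sum of FPKM (-0.18), 0.0693 without a filter and 0.0504 with robust eBayes, and a pseudocount of 5 gave -0.14. Same-numbered libraries shared only a number (correlations of their deviations -0.08, -0.023 and -0.035). With the replicate block 3 genes were lower and 0 higher, and Tnf stayed at -0.24 with an unadjusted p of 0.0458. Without fragment totals, what depth limits could not be set for single ligands.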
